A study of Schizosaccharomyces pombe with 4 samples.

Results

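The response described here is that of wild-type fission yeast, Schizosaccharomyces pombe, to 30 min at 36 °C. It was measured on 2 of the 4 two-channel arrays of a study of mmi1, and those 2 were chosen because their labels give wild-type cells. Both wild-type arrays carried polyA RNA of strain JV558. One channel held RNA of cells collected 30 min after a rich-medium (YES) culture growing at 25 °C was moved to 36 °C, and the other held RNA of log-phase cells of the same strain at 25 °C. The other 2 arrays repeated this design in strain JV565, which carries mmi1-ts3, a temperature-sensitive allele of the gene for an RNA-binding protein that removes meiotic transcripts from growing cells. They enter here through a shared estimate of the spread and through 1 comparison near the end. The wild-type cultures were thus the study's control for the temperature shift, and 36 °C is the restrictive temperature of the mutant allele. Cultures started from a single colony, and nothing in the labels says that the 2 arrays of a strain hold RNA of different cultures, so the spread behind the p-values may be a technical one.

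The values are the authors' deposited log ratios, read as log2 of the 36 °C channel over the 25 °C channel. Each array was centred on the median of its genes, so a value is a change relative to the median gene and not a change per cell. The sources used here give neither the log base nor the direction of the ratio. Read as natural logs, the same genes would be called but every fold below would be further from 1: the rise of hsp16 would be 1609-fold in place of 167-fold, and 598 and 620 genes would pass at 2-fold or more in place of 387 and 396. The direction was read as 36 °C over 25 °C because channel 1 is the shifted culture, and with that reading all 6 measured genes of small heat shock proteins, disaggregases and Hsf1 were positive on both arrays. That sign is therefore a premise, and only the sizes of those genes and the directions of others relative to them are results. The labels name no exchange of the dyes, so any effect of a dye on a gene is part of its value. Pairs of values below are given for array 1 and then array 2, so the value without one array is the value printed for the other. A fit without one array leaves the wild type with 1 value and takes its spread from mmi1-ts3. A call lost there does not by itself show that the 2 wild-type arrays differ. A gene was called higher or lower when its mean over both arrays passed limma at a Benjamini-Hochberg adjusted p under 0.05 over all 4771 genes tested. Adjusted p-values below are from that fit.

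A shift to a higher temperature unfolds proteins and starts a set of programmes that are old in evolution. Heat shock factor raises chaperones, which refold or dissolve damaged proteins. In fission yeast the stress kinase Sty1 and the factor Atf1 raise a wider set of stress genes shared by many stresses, among them catalase and the enzymes of trehalose synthesis. Genes for ribosomes and growth are commonly lowered at the same time.

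In the wild type, 643 genes were higher (13.5% of those tested) and 693 lower (14.5%), so 1336 genes (28.0%) passed in either direction. At least 2-fold, 387 were higher (8.11%) and 396 lower (8.3%). The upper end of the response reached further from 0 than the lower end. Of the genes called higher, 46 changed by 8-fold or more and 62 by 4-fold to 8-fold, while 7 and 65 of those called lower did so. A further 50 genes with a mean of 2-fold or more did not pass. Genes named below that fall outside the naming rule, which is given with the processing, were chosen after their values were seen. Without array 1 the counts were 416 higher and 434 lower, and without array 2 they were 353 and 296.

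The 2 arrays correlated across genes with a Pearson r of 0.774, given as a description since genes of an array share its RNA and hybridisation. The mmi1-ts3 pair correlated at 0.868. The array titles fall into a set with a code and a set without, 1 array of each strain in each. Arrays of different strains in the set without a code, which holds array 1, correlated at 0.907, and those in the coded set, which holds array 2, at 0.873. Same-strain arrays were therefore less alike than same-set arrays. The difference between the 2 wild-type arrays had an SD of 0.634 (log2) over genes, and 3463 genes (72.6%) had the same sign on both. Of all 4771 genes, 1730 were above 0 on both and 1733 below 0 on both, the base for such counts in the lists below. All 1336 called genes had the same sign on both, which the call largely sets, since it needs a mean far from 0 for its estimated spread. The precision of each value is limited by the number of arrays.

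**Figure D1:**
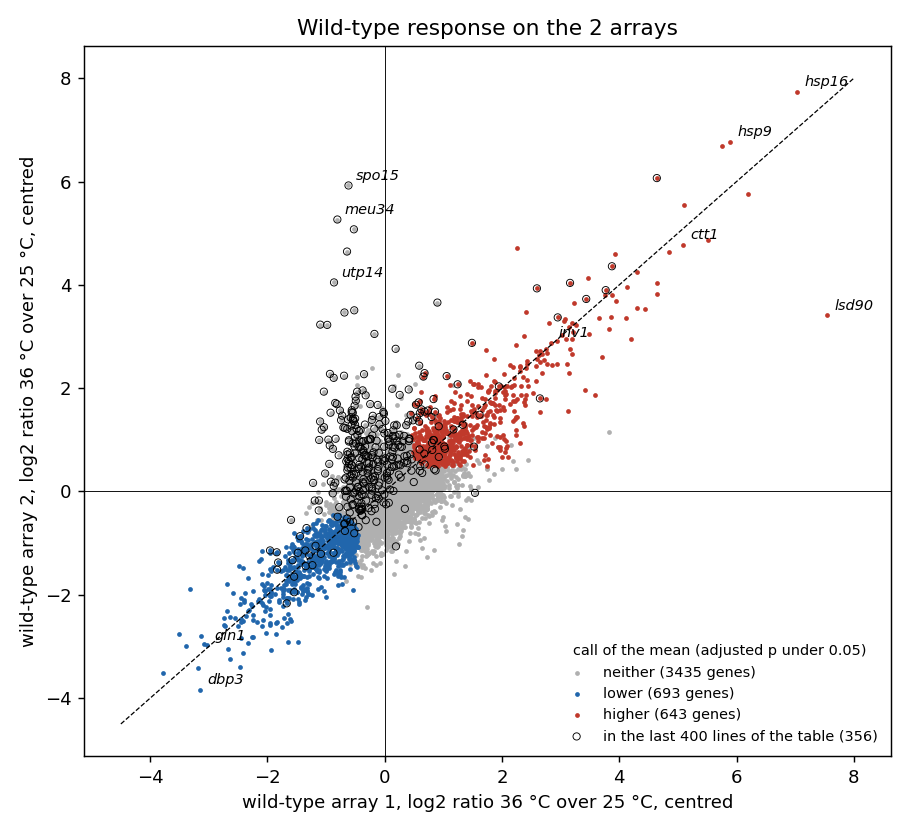
Each point is 1 of 4771 genes, with its centred log2 ratio on wild-type array 1 (x axis) and array 2 (y axis). Red and blue points are the 643 genes called higher and the 693 called lower, grey points are neither, the dashed line marks equal values, and open rings mark the 356 genes in the last 400 lines of the value table, many of which lie above that line, with spo15, meu34 and utp14 near its top left.

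Genes that lie late in the deposited value table did not behave alike on the 2 arrays, which bears on every result for such a gene. Those named below that lie in the last 400 lines include rds1, hsp78, psi1, atg17, rpt6, rpn6, rpa43, pgk1, adh4, tal1 and mmi1. The 356 genes tested in the last 400 lines had a median of −0.35 on array 1 and 0.67 on array 2. Their difference between arrays had an SD of 1.02, against 0.517 for the other 4415 genes, and 17.1% of them were called against 28.9% elsewhere. In lines 4001 to 4200 the medians ran the other way, 0.30 on array 1 and −0.35 on array 2, with 0.23 and −0.36 in mmi1-ts3. That run holds lsd90, ctt1, gst3, zuo1, aro2, gnd1 and ptc1, all named below. Lines 1401 to 1600 had a median below 0 on every array, −0.16 and −0.71 in the wild type and −0.44 and −0.26 in mmi1-ts3. Genes named below that lie there include pma2, rmn1, blt1, SPOM_SPBC887.17, mak3, rpp0, zrt1 and cut6. The sources used here do not give whether table position stands for position on the slide. In 2 alternatives chosen after seeing the data, centring within runs of 200 lines gave 738 genes higher and 768 lower, and leaving out the last 400 lines gave 721 and 746.

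**Figure D2:**
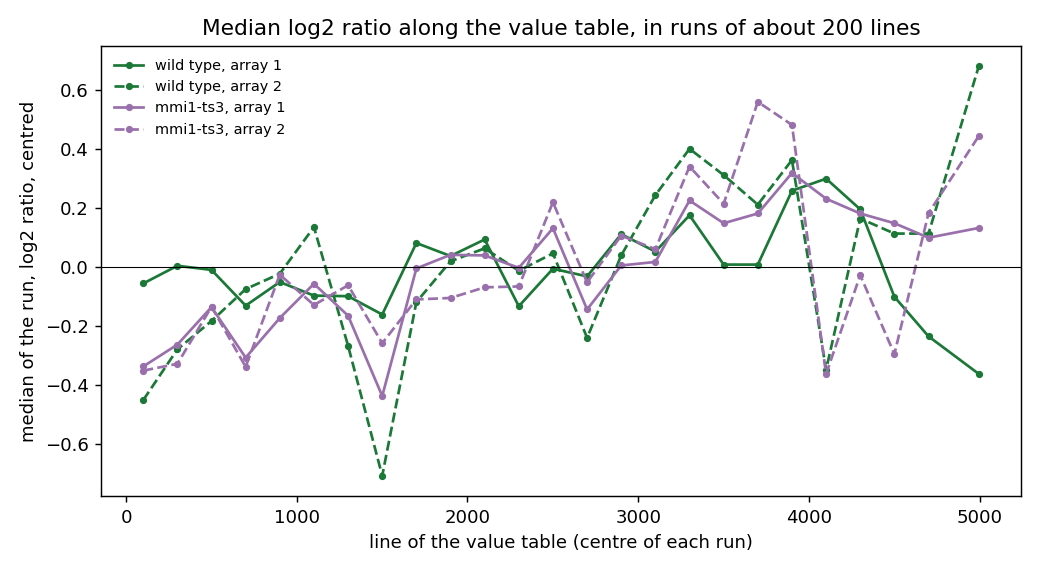
The median centred log2 ratio in successive runs of about 200 lines of the value table (y axis) is plotted against the line at the centre of each run (x axis) for the 2 wild-type arrays (green) and the 2 mmi1-ts3 arrays (purple). In the last run wild-type array 1 lies at −0.36 and wild-type array 2 at 0.68, the widest gap between them along the table.

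The gene highest at 36 °C was hsp16, which encodes a small heat shock protein that holds unfolded proteins in a soluble state. It stood at 7.03 and 7.74, a 167-fold rise (log2 7.38 ± 0.50 SD, n = 2; adjusted p = 0.000478). Next came hsp9, a small stress protein, at 5.89 and 6.77 (80.6-fold), then rtc3 at 5.75 and 6.69 (74.4-fold) and ddr48, named after a DNA damage-responsive gene of budding yeast, at 6.20 and 5.76 (63.2-fold). On both arrays these 4 genes stood at 5.75 or higher. Among the 15 highest genes were also rds1 at 4.64 and 6.07, tsp0 at 5.11 and 5.55, the catalase gene ctt1 at 5.09 and 4.78, ish1 at 4.85 and 4.63 and the glutathione peroxidase gene gpx1 at 4.65 and 4.04. The metallothionein gene zym1 followed at 4.65 and 3.82, and mug35, first listed for its rise in meiosis, at 4.31 and 4.25. The unnamed genes SPOM_SPAC637.03 (5.52 and 4.86) and SPOM_SPAC22F8.05 (3.92 and 4.60) were in the same range. One of the 15 was uneven: lsd90 read 7.55 on array 1 and 3.42 on array 2, and the mmi1-ts3 arrays read 7.40 and 7.20. It lies at line 4077 of the table. The run of lines 4001 to 4200 had a median of 0.30 on array 1 and −0.35 on array 2. That of mmi1-ts3 array 2 was −0.36, beside its 7.20 for lsd90. The cause of the gap was not tested.

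At the low end stood SPOM_SPAC8E11.10 at −3.78 and −3.51 and dbp3, a DEAD-box RNA helicase gene of ribosome production, at −3.15 and −3.84 (0.0888-fold). A further DEAD-box helicase gene, dbp2, read −3.18 and −3.42 (0.101-fold). The 15 lowest genes came from several processes. Besides dbp3 and dbp2, the ribosome production genes nip7 (−2.64 and −3.24), grn1 (−2.68 and −3.04) and nop2 (−2.75 and −2.59) were among them, with pno1 and pxr1 close by at means of −2.64 and −2.77. The others with a known role were adg1 (−3.39 and −2.99), a gene of cell separation, gln1 (−3.03 and −2.98), the glutamine synthetase, str1 (−3.14 and −2.80), a siderophore transporter, and apt1 (−2.46 and −3.40), which salvages adenine. The gene ani1 read −3.50 and −2.75, and the unnamed SPOM_SPBC887.17 and SPOM_SPCC320.08 had means of −3.02 and −2.66. All 15 read −2.41 or lower on both arrays.

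**Figure D3:**
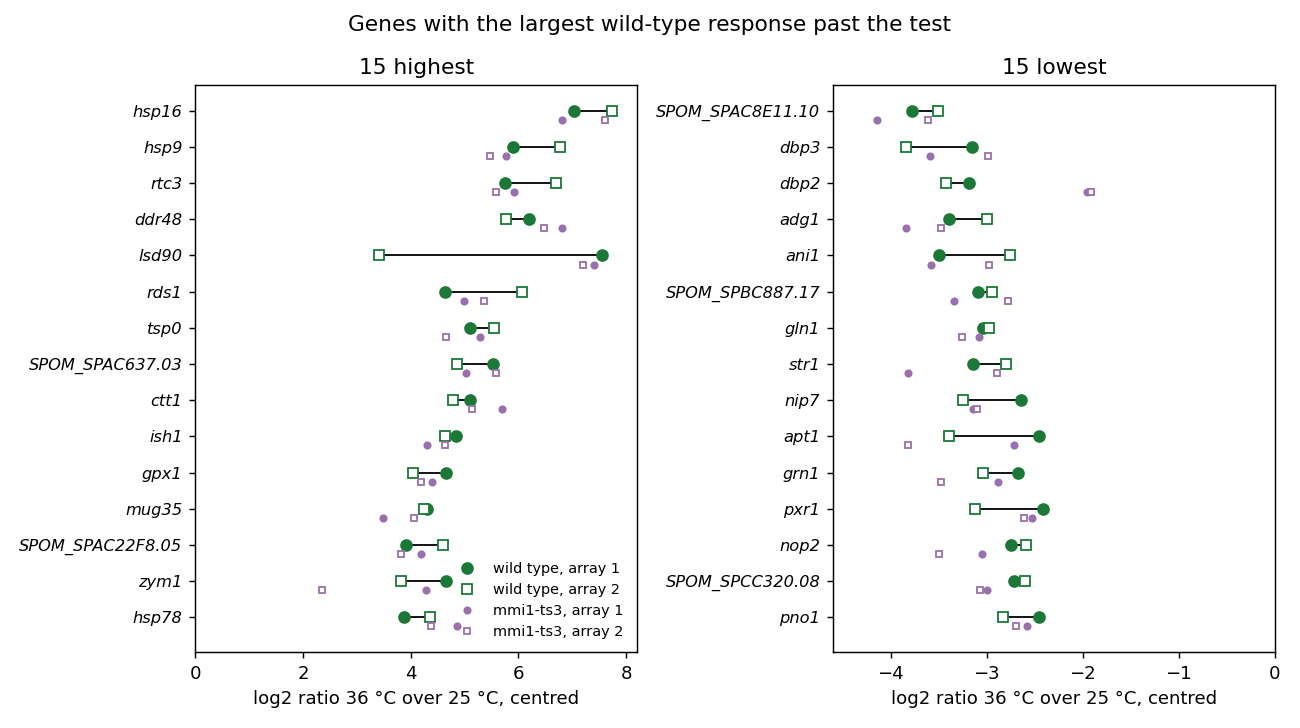
Centred log2 ratios (x axes) are shown for the 15 genes with the highest and the 15 with the lowest wild-type means among called genes, with filled circles for array 1 and open squares for array 2, green for the wild type and purple for mmi1-ts3. The wild-type arrays lie close together for most genes, from hsp16 at 7.03 and 7.74 to dbp3 at −3.15 and −3.84, and lsd90 has the widest gap at 7.55 and 3.42.

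Protein folding genes split by family. All 6 of the small heat shock proteins, disaggregases and Hsf1 were called higher, with a median of 4.08 against 0.03 over all genes. Both disaggregases rose: hsp104, which pulls proteins out of aggregates in the cytosol, read 4.13 and 3.95 (16.5-fold), and hsp78, its mitochondrial relative, 3.87 and 4.36 (17.3-fold). The gene hsp20 read 2.40 and 1.87. The factor itself, hsf1, rose least of the list at 0.78 and 0.84 (1.75-fold), and its call was lost with either array left out.

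Of 17 Hsp70 chaperones and partners, 6 were higher (35.3%, against 13.5% of all genes) and 3 lower (17.6%, against 14.5%), with a median of 0.30. Those that rose most serve the cytosol. The J-domain gene psi1, whose product hands substrates to Hsp70, read 3.77 and 3.90 (14.2-fold). The exchange factor gene fes1 read 2.69 and 2.29, and the cytosolic Hsp70 genes ssa1 and ssa2 read 1.86 and 2.13, and 1.31 and 1.44. The mitochondrial Hsp70 gene ssc1 (0.85 and 0.66) and its J-domain partner mdj1 (1.07 and 0.59) rose less, and both calls were lost without array 1, that of ssc1 also without array 2. The 3 that fell included 2 genes of the chaperones that meet new chains at the ribosome, the J-domain gene zuo1 at −1.73 and −1.93 and the Hsp70 gene sks2 at −1.38 and −1.41. The gene of the Hsp70 that pairs with Zuo1, ssz1, did not pass and read −0.88 and 0.83, in the last 400 lines of the table. The mitochondrial exchange factor gene mge1 fell too, at −1.29 and −1.09. The Hsp110 gene pss1 (0.40 and 0.21) did not pass either.

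Of 7 genes of Hsp90 and its co-chaperones, 6 were higher, with a median of 1.92. The co-chaperones led: wis2, a cyclophilin, at 2.63 and 2.64, aha1, which speeds the ATPase of Hsp90, at 2.31 and 2.41, sti1, which links Hsp70 to Hsp90, at 2.13 and 2.44, and wos2, the p23 homologue, at 2.06 and 1.79. The chaperone gene itself, hsp90, rose by less, 1.17 and 0.80 (1.98-fold, adjusted p = 0.0177), and did not pass without array 1. The call of git7 (0.80 and 0.99) was lost with either array left out, and cns1 (0.28 and −0.32) did not pass.

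Of 13 genes for chaperonins and prefoldin, 1 was higher (7.69%, against 13.5% of all genes) and 2 were lower (15.4%, against 14.5%), with a median of −0.36, and 10 were below 0 on both arrays. The gene called higher was mitochondrial, hsp10, at 1.23 and 1.08, and its partner mcp60 (0.83 and 0.39, adjusted p = 0.0669) did not pass. The lower ones were cct6 (−0.46 and −0.85) and cct8 (−0.64 and −0.61), subunits of the cytosolic chaperonin that folds actin and tubulin, and both calls were lost with either array left out.

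In the folding machinery of the endoplasmic reticulum, 3 of 14 genes were higher (21.4%, against 13.5% of all genes). There 2 were lower (14.3%, against 14.5%), and the median was −0.09. The oxidase gene ero11 read 1.85 and 1.44, the calnexin gene cnx1 1.40 and 1.75 and pdi3 0.60 and 1.04. The Hsp70 of that compartment, bip1, read 0.52 and 0.31 (adjusted p = 0.121) and did not pass. Both lower calls, ero12 at −0.86 and −0.78 and the translocon gene sec61 at −0.62 and −0.70, were lost with either array left out, and pdi3 was lost without array 2.

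Of 24 antioxidant genes, 9 were higher and 2 lower, with a median of 0.32. Beside ctt1 and gpx1 above, the glutathione S-transferase gene gst3 read 3.26 and 3.23 and the glutaredoxin gene grx1 2.72 and 2.55. The peroxiredoxin genes tpx1 (2.08 and 2.04) and pmp20 (1.97 and 1.57), the mitochondrial superoxide dismutase gene sod2 (2.18 and 1.87) and the thioredoxin gene trx1 (1.75 and 1.21) also rose. The lower pair held close relatives of genes that rose, trx2 at −0.53 and −1.16 and grx4 at −0.60 and −0.94. Without array 2 the calls of both were lost, and without array 1 that of grx4.

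Most trehalose and glycerol genes were higher, 7 of 11, with 1 lower and a median of 1.56. Trehalose is a sugar that protects proteins during heat. The synthase gene tps1 read 3.23 and 3.65 (10.8-fold), tps3 3.20 and 3.08, and the phosphatase gene tpp1, which completes the synthesis, 1.52 and 2.09. The gene of the enzyme that breaks trehalose down, ntp1, stood higher still at 3.85 and 3.38 (12.2-fold). For glycerol, gpd1, which makes its phosphate, read 3.06 and 3.31 (9.09-fold) and gut2, which oxidises that phosphate, 1.20 and 1.92. The 2 dihydroxyacetone kinase genes lay apart, dak1 at 0.86 and 1.54 and dak2 at −0.91 and −0.98. The call of dak1 was lost without array 2 and that of dak2 with either array left out.

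Of 24 genes of the Sty1 pathway, the kinase pathway that acts upstream of many of these, 4 were higher (16.7%, against 13.5% of all genes) and 1 lower (4.17%, against 14.5%). Their median was 0.09, and without array 2 only 1 was higher. The factor gene atf1 read 1.29 and 1.85 (2.96-fold), while its partner pcr1 (−0.18 and −0.21), the kinase gene sty1 (0.15 and 0.37) and its activator wis1 (−0.52 and −0.41) did not pass. The others called were the phosphatase gene ptc1 (1.07 and 1.34), the phosphorelay gene mpr1 (0.87 and 1.20), cip1 (0.68 and 1.0) and, lower, the histidine kinase gene mak3 (−0.68 and −1.24). The last was lost with either array left out and with centring within runs of 200 table lines, and ptc1, mpr1 and cip1 without array 2.

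The proteasome genes that rose did so by small amounts. Of 35 proteasome genes, 13 were higher and none lower, with a median of 0.57 and a range from 0.12 to 1.13, and 31 were above 0 on both arrays. The ATPase gene rpt5 read 1.0 and 1.26, rpt6 0.84 and 0.99, the lid gene rpn6 0.83 and 1.0 and the assembly factor gene ump1 1.36 and 0.59. Only 1 of these 35 passed without array 1 and 2 without array 2. Of the 4 named, rpt6 and rpn6 were lost with either array left out and with centring within runs of 200 table lines, ump1 without array 1 and rpt5 without array 2. With a block on the array set, 22 passed.

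Ubiquitin enzymes gave 6 higher and 1 lower of 17 (median 0.23), with ubc8 at 2.13 and 1.69 and ubc6 at 1.90 and 1.59. The calls of rhp6 (1.30 and 0.87), the Rad6 homologue, and ubc14 (0.99 and 1.06) were lost without array 1, that of ubc14 also without array 2, and the count higher was then 2 and 3. Autophagy and vacuolar protease genes gave 12 higher and 1 lower of 33, with a median of 0.59. The vacuolar protease gene isp6 read 2.65 and 2.73 and its relative psp3 1.60 and 1.65. The mitophagy receptor gene atg43 read 2.37 and 3.02 and the scaffold gene atg17 1.49 and 2.88. The exception was atg12 at −0.82 and −0.96, lost with either array left out. Of the 33, 8 were higher without array 1 and 9 without array 2, and 21 with a block on the array set.

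Ribosome production gave the highest share of calls among the lists of over 20 genes. Of 101 measured genes for building ribosomes in the nucleolus, 90 were lower (89.1%, against 14.5% of all genes) and 1 was higher, and 96 were below 0 on both arrays. Their median was −1.58, at −1.56 on array 1 and −1.54 on array 2. The count lower was 81 without array 1 and 79 without array 2. The falls of dbp3 and dbp2 are given above. The 1 gene called higher was the helicase gene has1 at 1.28 and 1.60 (2.71-fold, adjusted p = 0.00527). The gene utp14 had the highest mean of the list, 1.59, but read −0.86 and 4.05, lies in the last 400 lines and did not pass (adjusted p = 0.314).

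RNA polymerase I, which copies only ribosomal RNA genes, also had most of its genes lower. Of its 12 genes 9 were lower (median −1.31), and 7 were lower with either array left out. The subunit genes rpa49 (−1.86 and −2.55), rpa43 (−1.54 and −1.95) and ker1 (−1.36 and −2.10) fell most. The gene for its largest subunit, nuc1, read −1.58 and −1.48. It was printed 17 times on each array, and its spots had an SD of 0.290 on array 1 and 0.439 on array 2, with every spot at −0.85 or lower.

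The genes of RNA polymerases III and II gave smaller shares. For polymerase III, 7 of 19 were lower and 1 higher (median −0.38), led by rpc19 at −1.62 and −1.90 and rpc40 at −1.48 and −1.33, both subunits that polymerase I also uses. The genes rpc34 (−1.0 and −2.03) and rpc11 (−1.13 and −1.90) were lost without array 2, which left 2 lower, and the higher one, sfc1 (0.95 and 0.93), a subunit of factor TFIIIC, with either array left out. For polymerase II, 4 of 12 were lower, and all 4 are subunits known to be shared by the 3 polymerases: rpb8 at −1.80 and −2.13, rpb5 at −0.99 and −1.39, rpc10 at −0.80 and −0.99 and rpb10 at −0.59 and −1.17. The fifth shared subunit, rpb6, did not pass (−0.21 and −0.47, adjusted p = 0.204), nor did the other 7 on the list. Without array 2 only rpb8 passed.

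The medians of ribosomal protein genes lay nearer to 0 than that of the factors that assemble them. Of 76 large-subunit genes 46 were lower and 1 higher, with a median of −0.67, and of 47 small-subunit genes 18 were lower and none higher, with a median of −0.58. Nearly all lay below 0: 74 of the 76 and 45 of the 47 did so on both arrays. The medians of the 2 lists were −0.58 and −0.51 on array 1 and −0.74 and −0.63 on array 2. Most of the lower calls were lost with either array left out. The stalk genes rpp0 (−1.12 and −1.03) and rpp202 (−0.75 and −1.42) and rps2802 (−1.03 and −1.64) were among the lowest, and the calls of rpp0 without array 1 or with centring within runs of 200 table lines and of rpp202 and rps2802 without array 2 were lost.

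Most ribosomal proteins of fission yeast are encoded by near-identical gene copies, whose probes may bind each other's RNA, so values of copies are uncertain; their cross-hybridisation was not tested. Over 44 families with at least 2 measured copies, the spread between the highest and the lowest copy had a median of 0.152. In 1 family it was over 1, and in 14 families the arrays of the highest and the lowest copy did not overlap. The copy rpl501 was the single ribosomal protein gene called higher (1.25 and 0.76), while rpl502 was lower (−0.68 and −1.09), a spread of 1.89 with no overlap of their arrays. That spread was noticed among the values, and the call of rpl501 was lost without array 1 and that of rpl502 without array 2.

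The median of the translation factors lay between those of ribosome production and ribosomal proteins. Of 36 such genes 22 were lower and none higher (median −0.81), with tif11, for initiation factor eIF1A, at −1.33 and −1.93, tif306 at −1.24 and −1.37, tif471, for eIF4G, at −1.41 and −1.10 and tef5 at −1.07 and −1.35. The count lower was 10 without array 1 and 9 without array 2, where tef5 was lost. Of 16 genes with aminoacyl-tRNA synthetase symbols, matched by symbol alone, 4 were lower and none higher (median −0.52), led by prs1 at −1.56 and −1.71 and mrs1 at −1.37 and −1.11. Mitochondrial ribosomal proteins, 45 in number, stayed near the median of all genes at 0.04, with 1 higher and 2 lower, and none of the 3 passed with an array left out.

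**Figure D4:**
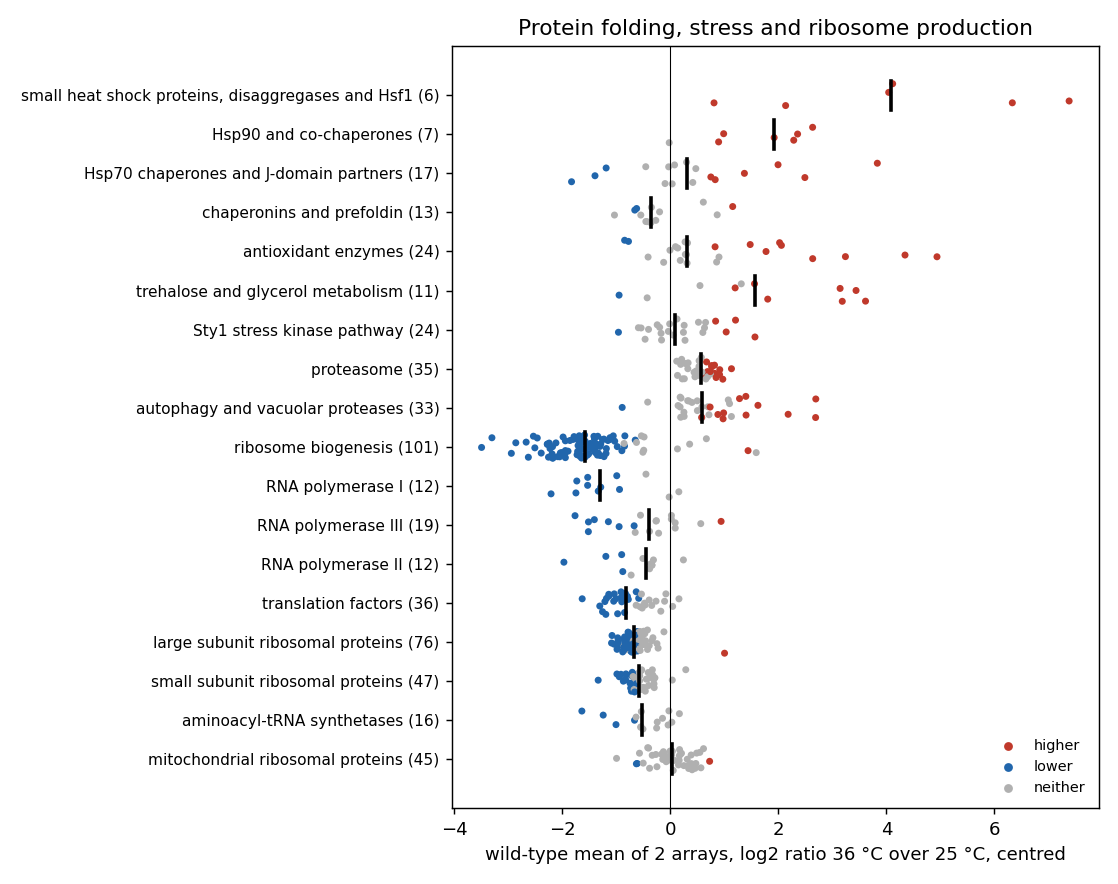
Each point is a gene's wild-type mean of 2 arrays (x axis, centred log2 ratio), in rows by list with the number of genes tested in brackets, red for called higher, blue for called lower and grey for neither, and a black bar at the median of each list. The bars run from 4.08 for the small heat shock proteins, disaggregases and Hsf1 to −1.58 for ribosome biogenesis, with mitochondrial ribosomal proteins at 0.04.

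Most genes of nucleotide synthesis were lower. Of 19 purine and pyrimidine genes 14 were lower (73.7%) and 1 higher, with a median of −1.13, and 11 were lower with either array left out. After apt1 came ade9 at −1.95 and −3.07, ura3, for dihydroorotate dehydrogenase, at −2.46 and −2.06, and ade1 at −1.95 and −2.27. The exception, ade7, read 0.82 and 0.67 and was lost with either array left out.

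Of 56 genes of amino acid synthesis 4 were higher (7.14%, against 13.5% of all genes) and 7 lower (12.5%, against 14.5%), with a median of −0.10. The chorismate synthase gene aro2 read −2.10 and −1.15, the glutamate synthase gene glt1 −1.16 and −1.13 and the sulphate activation gene met14 −1.10 and −1.11, while the arginine gene arg12 read 1.31 and 1.15. Without array 2 the counts were 1 higher and 3 lower. Nitrogen uptake and assimilation gave 4 higher and 4 lower of 17 (23.5% each, against 13.5% and 14.5% of all genes). The deep fall of gln1 (0.125-fold) stood opposite the rise of gdh2, a glutamate dehydrogenase gene, at 1.20 and 1.02. The peptide transporter gene ptr2 (−1.41 and −1.25) and isp7 (1.97 and 0.87) were lost without array 1, which left 1 higher and 1 lower, and without array 2 the counts were 2 and 2.

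Of 16 glycolysis and fermentation genes 3 were higher (18.8%) and 2 lower (12.5%), shares near the 13.5% and 14.5% of all genes, with a median of −0.03. Among them were pgk1 at 1.62 and 1.49 and pgi1 at 1.07 and 1.15 on the higher side. Of the fermentation genes, pdc201 read 2.09 and 0.88 and was lost without array 1, and adh4 read −1.96 and −1.14 and was lost with either array left out. In the pentose phosphate pathway, which supplies NADPH, 4 of 8 were higher and 1 lower (median 0.75). There gnd1, for 6-phosphogluconate dehydrogenase, read 2.37 and 1.73 and tal1, for transaldolase, 1.17 and 1.20. The gene of the first enzyme, zwf1 (0.93 and 0.99), and the gluconate kinase gene idn1 (0.72 and 1.23) were lost without array 2, and the lower one, rki1 (−0.85 and −0.98), with either array left out.

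Genes that glucose normally keeps low leaned upward. Of 10 glucose-repressed genes 3 were higher and none lower, with a median of 0.74, and 9 were above 0 on both arrays. The invertase gene inv1 read 2.84 and 2.88 (7.25-fold, adjusted p = 0.000751) and the galactokinase gene gal1 1.59 and 2.03. The neighbour of the latter in the galactose pathway, gal10, read 0.50 and 1.68 (adjusted p = 0.049) and was lost without array 2, with no centring, with quantile normalization and with a robust variance model. Of 8 hexose transporters, only ght2 was higher (12.5%, against 13.5% of all genes), at 1.73 and 2.25, and none was lower. The high-affinity transporter gene ght5 read −0.72 and −0.45 (adjusted p = 0.0587) and ght8 −0.83 and −0.49.

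In mitochondria, 4 of 10 genes of the tricarboxylic acid cycle were higher and none lower (median 0.49). The malate dehydrogenase gene mdh1 stood apart at 2.42 and 2.53 (5.57-fold). The aconitase gene aco1 (0.85 and 1.39), idh2 (0.78 and 1.08) and the citrate synthase gene cit1 (0.91 and 0.62) rose less, and without array 2 only 1 of the 4 passed, while cit1 was lost without array 1 too. Of 44 respiratory chain and ATP synthase genes 7 were higher (15.9%, against 13.5% of all genes) and 1 lower (2.27%, against 14.5%). Their median was 0.33, and 29 were above 0 on both arrays. The count higher was 1 without array 1 and 0 without array 2. The gene ndi1, for an NADH dehydrogenase, read 1.05 and 1.18 and atp23 −0.76 and −1.61, and both were lost without array 2.

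Several iron uptake genes fell far. Of 16 genes for iron and copper uptake 6 were lower and 1 higher, with a median of −0.12. The siderophore transporter gene str1 read −3.14 and −2.80, the permease gene fip1 −2.58 and −1.96 and its ferroxidase partner fio1 −2.42 and −1.47, followed by str3 at −3.31 and −1.88 and the reductase gene frp1 at −2.08 and −1.60. The sixth lower gene, php4, encodes a repressor that acts when iron is scarce and read −0.67 on both arrays. Of the 16 genes, 9 were called in neither direction. The gene that rose, sib1, makes the siderophore ferrichrome and read 1.53 and 0.81. Without array 1 only 2 of the 6 passed, with str3, fio1, frp1, php4 and sib1 lost, and without array 2 only 4, with fio1 and php4 lost.

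Other transport genes moved singly. The phosphate transporter gene pho842 rose at 1.99 and 2.05, while pho4, an acid phosphatase gene, read −1.06 and −0.85 and was lost without array 1. For zinc, zym1 rose as given above and the uptake gene zrt1 (−0.86 and −0.99) was lost with either array left out and with centring within runs of 200 table lines. Of the 10 cation pumps and transporters, both proton pump genes were lower. The minor one, pma2, read −2.31 and −2.30 and fell to 0.202-fold. The major one, pma1, read −1.18 and −0.74, and its call was lost with either array left out, as was that of cta3 (0.73 and 0.71), which the centring within runs also ended.

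**Figure D5:**
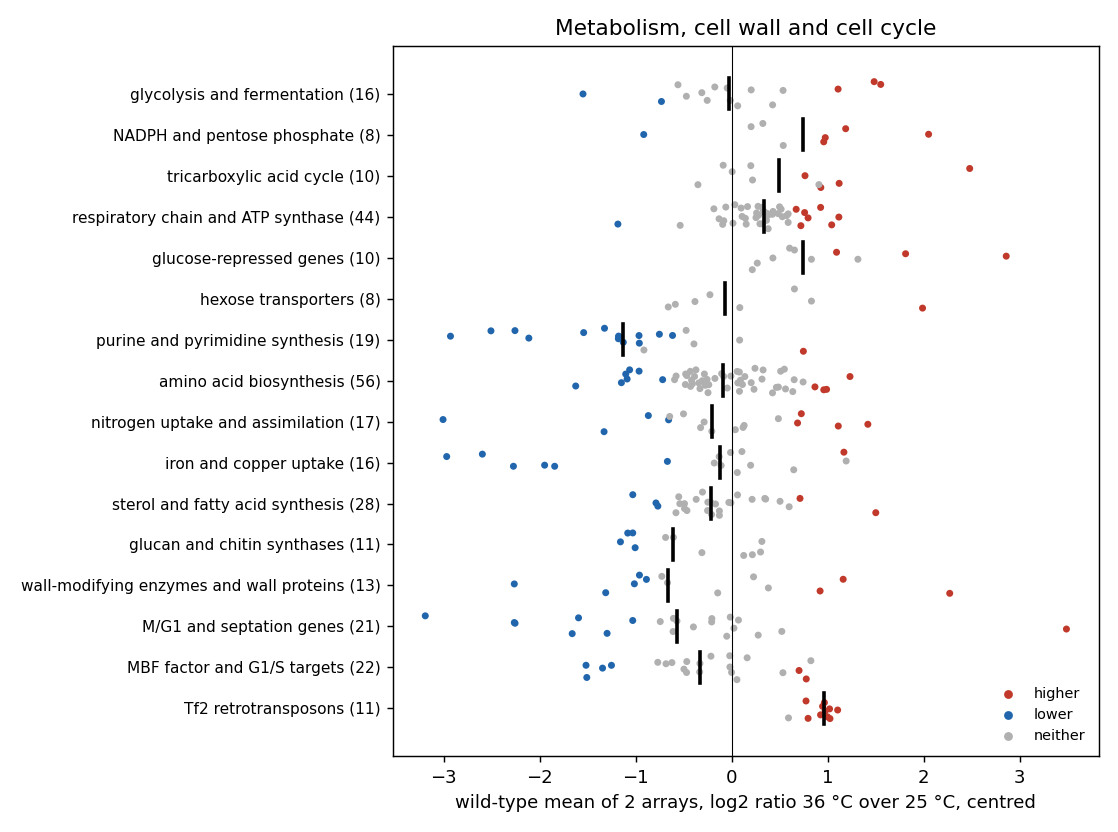
Each point is a gene's wild-type mean of 2 arrays (x axis, centred log2 ratio) in rows for lists of metabolism, cell wall, cell cycle and Tf2 elements, coloured red for called higher, blue for called lower and grey for neither, with a black bar at each median and the number of genes tested in brackets. The medians run from −1.13 for purine and pyrimidine synthesis to 0.97 for Tf2 elements, and single genes such as gln1 (mean −3.01) and str1 (−2.97) lie far from the medians of their lists.

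Genes of cell separation were among the lowest in the data. Of 21 genes of the M/G1 wave and septation, 7 were lower and 1 higher, with a median of −0.57. Among the lower genes, adg1 is given above, adg3 read −2.41 and −2.10, eng1, whose glucanase cuts the septum, −2.40 and −2.13, adg2 −1.52 and −1.80 and cfh4 −1.40 and −1.19. The anillin relative mid2 read −1.32 and −1.87 and was lost without array 2. Opposite to them stood myp2, a myosin II heavy chain gene of the contractile ring, at 3.83 and 3.15 (11.2-fold, adjusted p = 0.00167).

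Wall synthesis genes fell by about 2-fold where they fell. Of 11 glucan and chitin synthases 4 were lower and none higher: bgs3 at −1.05 and −1.27, bgs1 at −1.19 and −0.97, bgs4 at −1.21 and −0.85 and the alpha-glucan synthase gene mok12 at −0.71 and −1.30. Without array 1 the calls of bgs1 and bgs4 were lost and without array 2 that of mok12. Among 13 wall-modifying enzymes and wall proteins 3 were higher and 5 lower (median −0.67), with psu1 at −1.26 and −1.36 and the glucanase gene exg3 at 2.74 and 1.80. With either array left out, 1 of these 13 was higher, and 2 or 3 were lower.

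Of 22 genes of the MBF factor and its G1/S targets, 4 were lower (18.2%, against 14.5% of all genes) and 2 higher (9.09%, against 13.5%), shares near those of all genes. The ribonucleotide reductase gene cdc22 read −1.65 and −1.38, tos4 −1.47 and −1.55, and the MBF genes res1 −1.12 and −1.57 and rep2 −1.40 and −1.11, with res1 lost without array 2. The other reductase subunit gene, suc22 (0.72 and 0.68), and the reductase inhibitor gene spd1 (0.72 and 0.83) were the 2 called higher, and both were lost with either array left out. Among 15 regulators of entry into mitosis only blt1 passed, at −1.09 and −1.38, and not without array 2. Among 11 core histone genes only hta2 passed, at −0.50 and −0.74, and not with either array left out, though 10 of the 11 were below 0 on both. No septin passed out of 7, with means from −0.39 to 0.26. Among 9 kinesins only klp9, for a motor of the anaphase spindle, passed, at 1.20 and 1.01 (11.1% higher, against 13.5% of all genes).

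Of 28 membrane lipid genes 2 were higher (7.14%, against 13.5% of all genes) and 3 lower (10.7%, against 14.5%), with a median of −0.21. The squalene epoxidase gene erg1 read 1.49 and 1.51, and cut6, for acetyl-CoA carboxylase, −1.03 on both arrays. The calls of erg24 (0.81 and 0.61) and erg7 (−0.83 and −0.74) were lost with either array left out, and those of cut6 and scp1 (−0.46 and −1.08) without array 2, that of cut6 also with centring within runs of 200 table lines.

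The shares of RNA processing genes called lower lay on both sides of the 14.5% of all genes. They were 25.0% for the exosome and RNA elimination, 17.6% for CCR4-NOT and decapping and 7.35% for splicing factors. Of 20 genes of the exosome and of RNA elimination 5 were lower and none higher, with a median of −0.50 and 17 below 0 on both arrays. The genes rmn1 (−1.32 and −1.78), mtr4 (−1.36 and −1.40), rrp42 (−1.56 and −1.14), rrp46 (−1.0 and −1.34) and cid14 (−0.99 and −1.20) were the 5. Without array 1 rrp42 was lost, and without array 2 mtr4, rrp46 and cid14 were, leaving 2. In the CCR4-NOT and decapping list 3 of 17 were lower, not3, not2 and rcd1, and none of these calls held without array 2. Of 68 splicing factors 3 were higher and 5 lower (median −0.14), led by prp43, a helicase gene that also serves ribosome production, at −1.60 and −1.94. The U2 snRNP gene sap49 read 1.40 and 1.13. Without array 2 only 1 was higher and 1 lower.

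Some genes named for their rise in meiosis were among the highest. Of 86 mug genes 13 were higher and 2 lower, that is 15.1% and 2.33% beside 13.5% and 14.5% of all genes, and the median was 0.17. Beside mug35, mug147 read 3.46 and 4.14, mug14 3.66 and 3.35, mug143 3.19 and 2.66 and mug191 2.65 and 2.51. Of 16 meu genes none was higher and 1 lower, meu29 at −0.95 and −1.36, and that not without array 2. Without array 1 the meu list would have had 5 higher, and 4 of its 16 genes lie in the last 400 lines. Their median was −0.21 on array 1 and 0.45 on array 2. Among 20 genes of mating and entry into meiosis only the factor gene ste11 passed, at 0.88 and 1.05, and not without array 2.

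Tf2 retrotransposons, the full-length mobile elements of this genome, were higher by a small amount. Of 11 measured copies 10 were higher, and all 11 were above 0 on both arrays, with a median of 0.97 and a range from 0.59 to 1.10. The copies are near-identical in sequence, so the 11 values may be 1 measurement read on several probes. The copy Tf2-2 read 1.37 and 0.84 and Tf2-1 1.15 and 0.90. None passed without array 1 and 2 passed without array 2. The median over the 11 was 0.46 in mmi1-ts3.

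Called genes lay on all 3 chromosomes. On chromosome I 322 of 2149 genes were higher and 291 lower, on chromosome II 218 and 259 of 1734 and on chromosome III 11.9% and 16.2% of 860. Of the 124 genes within 25 genes of a chromosome end 8.87% were higher and 16.9% lower. The ends were not alike: the share lower was 12.5% of 48 genes on chromosome I, 6.45% of 31 on II and 28.9% of 45 on III, with 34.8% of 23 at the right end of III, and the share higher was 4.17%, 19.4% and 6.67%. These differences between ends were not tested. Further in, the share higher was 15.8% of 133 from gene 26 to 50 and 19.5% of 282 from gene 51 to 100. Values of adjacent genes hardly ran together, with an r of 0.0449 over 4432 neighbouring pairs, of which 74 lie within 50 lines of each other in the value table. Of the genes called higher 27.0% had a neighbour called higher, against 23.7% of all genes, and for lower the shares were 28.1% and 24.9%. Runs of neighbours were searched for genes called higher only. The longest held 6 genes on chromosome I, with means from 0.72 to 3.21. They were ams1 (1.23 and 1.42), dhd1, SPOM_SPAC513.07, SPOM_SPAC2E1P3.01 (3.08 and 3.34), amt3 and Tf2-3. Of the 6, dhd1, amt3, Tf2-3 and SPOM_SPAC513.07 were each lost without array 1, and dhd1, amt3 and Tf2-3 without array 2 as well.

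By sign, nearly all genes of the wild-type response read the same way in mmi1-ts3. The wild-type means do not use those arrays, but each of them shares a set with a wild-type array. Arrays of different strains in a set correlated at 0.907 and 0.873, above the 0.774 of the wild-type pair. The shares of all genes positive or negative on both mmi1-ts3 arrays were not computed. Of the 643 genes higher in the wild type 639 (99.4%) were positive on both mmi1-ts3 arrays and 511 (79.5%) were also called there, where 14.9% of all genes were called higher. Of the 693 lower genes 691 (99.7%) were negative on both and 635 (91.6%) were called, where 19.6% of all genes were called lower. For the first set the median was 1.12 in wild-type cells and 1.09 in the mutant, and for the second −1.09 and −1.26. These genes were chosen on their wild-type values, and the calls of both strains use the same estimate of spread. The test of the difference between the strains gave 0 genes (0.0%) at an adjusted p under 0.05 with limma, with 90 genes at an unadjusted p under 0.05 and a smallest adjusted p of 0.254.

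Of the called genes, 3 had both arrays of mmi1-ts3 on the opposite side of 0: mug45 (−0.82 and −1.12 in the wild type), nc-pho1 (−0.76 and −0.96) and urg2 (1.22 and 0.65). Their difference did not pass either, with adjusted p of 0.551, 0.998 and 0.998. The call of nc-pho1 was lost with either wild-type array left out, that of mug45 without array 2 and that of urg2 without array 1.

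A few genes of the wild-type response stood apart between the strains by size without passing that test. The invertase gene inv1, at 2.84 and 2.88 in the wild type, read 1.15 and 1.04 in mmi1-ts3 (difference −1.76 ± 0.23 SE, adjusted p = 0.441). The unnamed gene SPOM_SPCC594.04C read 1.65 and 1.46 in the wild type and 0.03 and 0.08 in mmi1-ts3 (difference −1.50 ± 0.23 SE, adjusted p = 0.634). The unnamed gene SPOM_SPBC19C7.04C read 3.14 and 3.19 against 1.49 and 2.29 (difference −1.27), and urg1 2.22 and 1.40, a call lost without array 1, against 1.24 and 0.14 (difference −1.12). The galactokinase gene gal1 read 0.92 and 0.55 there (difference −1.08 ± 0.29 SE, adjusted p = 0.998). These 5 are the called genes with the largest differences in this direction. For each of them the arrays of the strains did not overlap, which that choice largely sets. The share of all genes without such overlap was not computed. The helicase gene dbp2 read −1.96 and −1.91 in mmi1-ts3 (difference 1.36 ± 0.24 SE, adjusted p = 0.853). The gene mug8, a meiotic gene, read 0.61 and 0.64 in the wild type, a call lost with either array left out, and 3.11 and 2.78 in mmi1-ts3 (difference 2.32 ± 0.25 SE, adjusted p = 0.254). The mutated gene, mmi1, read −0.24 and 1.01 in the wild type and did not pass (adjusted p = 0.419).

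The genes on which the 2 wild-type arrays disagreed most were almost all late in the table. Of the 10 with the largest gap, 9 lie in the last 400 lines and read below 0 on array 1 and 3.23 or higher on array 2. The gene spo15, which acts at the spindle pole body in sporulation, read −0.62 and 5.92, meu34 −0.81 and 5.27, pnk1, a DNA repair gene, −0.53 and 5.08, alg13 −0.64 and 4.64 and utp14 −0.86 and 4.05. The others were itr1, SPOM_SPAC13C5.04, ngg1 and rbk1. None of these 9 was called. The tenth was lsd90, described above. On 6 genes in all the arrays read at least 2-fold in opposite directions.

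The spread between spots of 1 gene on 1 array gives a second measure of error. The gene cdc2, for the main cell cycle kinase, was printed 17 times, with an SD of 0.167 on array 1 and 0.271 on array 2 and spots from −0.65 to 0.61 on the latter. The tubulin gene nda3, also printed 17 times, had SDs of 0.165 and 0.249 and medians of −0.39 and −0.20.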

How the data were processed

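PolyA RNA was compared on 4 two-channel arrays, 2 per strain. The authors deposited 1 log2 ratio per spot, as read here from the values; the log base, direction, background correction, normalization and spot filters are not given in the sources used here. Per the labels, channel 1 carried Cy5 and channel 2 Cy3, while the label protocol names Cy3. Of 5188 spots, 4933 carry 1 gene, 1 several and 254 none, and 5183 and 5121 had a value on wild-type arrays 1 and 2. Names came from the array annotation and RefSeq assembly ASM294v3, which matched 4930 spots by gene ID and was used for names and gene order only. Spots of a gene were averaged, and of 4880 named genes the 4771 measured on every array were tested. Each array was centred on its median; −0.10 and 0.07 were subtracted on the wild-type arrays. No column was left unmapped.

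A mean per strain was fitted to all 4 arrays with limma 3.58.1 in R 4.3.3 (lmFit, eBayes), with 2 residual and 3.56 prior degrees of freedom, and tested two-sided against 0 with Benjamini-Hochberg adjustment at 0.05. The script was tested on simulated data. Replicate numbers follow record order. An exact permutation of 2 arrays against 0 has too few arrangements to pass and was not used. Fold is 2 to the power of the mean. Lists hold genes chosen by known role or name pattern and are described by counts and medians without a test; the genes, lists and rules were chosen with earlier results of these data known. The rule for named genes takes the 15 highest and 15 lowest called genes, up to 4 members of each list with the largest absolute mean, the 10 with the largest gap between wild-type arrays, the 5 called genes with the largest strain difference in each direction, and mmi1. Alternatives covered centring and scaling, genes kept, variance model, thresholds, each array left out, the array set as a block, the log base and table position. Promoter motifs were not analysed here.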

Additional observations from a re-analysis of the deposited data

Results flagged for a closer look

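For 3 genes called in the wild type, both wild-type arrays lay on 1 side of 0 and both mmi1-ts3 arrays on the other. The gene mug45 read −0.82 and −1.12 in the wild type and 0.83 and 0.63 in mmi1-ts3, a difference of 1.70 (adjusted p = 0.551). The gene nc-pho1 read −0.76 and −0.96 against 1.07 and 0.28, a difference of 1.54 (adjusted p = 0.998). The gene urg2 read 1.22 and 0.65 against −0.10 and −0.13, a difference of −1.05 (adjusted p = 0.998). No difference passed limma's test between the strains.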

How the results depend on the processing

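The count of genes higher in the wild type was 643 and of genes lower 693. At an adjusted p under 0.01 the counts were 262 and 284, and at an adjusted p under 0.05 with at least 2-fold they were 387 and 396. With 1 array left out they ranged from 353 to 680 and from 296 to 666, the lowest without wild-type array 2; a strain left with 1 array was assumed to vary like the other. The other alternatives gave counts within 1.5 times of these, among them no centring (647 and 729), quantile normalization (644 and 777), the last 400 table lines left out (721 and 746) and a replicate block on the array set (928 and 919). The labels number no replicates and name no pairing, so the array set is the only block; arrays of a set correlated at 0.907 and 0.873 across genes, and the block ended no call of a named gene. The count of genes that differ between strains, 0, ranged from 0 to 2 with 1 array left out and was 3 with centring within runs of 200 table lines; the cause was not tested. The centring within runs and the lines left out were chosen after seeing the data.

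Of 229 named genes, 41 lost their call without wild-type array 1 and 61 without array 2. Centring within runs ended the calls of mak3, rpp0, rpt6, rpn6, mrpl20, zrt1, cut6, cta3, nrs1 and mug8, and a fit of the wild-type arrays alone those of cct6, mrpl20, hta2, isp5, krs1 and mug8. Genes whose 2 arrays lie on opposite sides of 0 changed sign with 1 array left out, and none was called with all arrays, though ngg1 passed without array 2: loz1 ranged from −0.35 to 0.67, pom1 from −0.51 to 1.29, meu34 from −0.81 to 5.27, meu26 from −0.24 to 1.43, meu31 from −0.18 to 1.22, isp3 from −0.49 to 1.76, spn7 from −0.20 to 0.73, spo15 from −0.62 to 5.92, pnk1 from −0.53 to 5.08, alg13 from −0.64 to 4.64, utp14 from −0.86 to 4.05, ngg1 from −1.10 to 3.23, rbk1 from −0.98 to 3.23, itr1 from −0.69 to 3.47, SPOM_SPAC13C5.04 from −0.52 to 3.51 and mmi1 from −0.24 to 1.01. Promoter motif shares, named among the planned results, were not run. The number of arrays limits every value here, and no measure of signal over background was analysed here.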
